A study of Homo sapiens with 2 samples.

Results

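The merged groups of neighboring bin pairs were the places in the TCF3::HLF-HiChIP of HAL-01 cells where more than 1 significant pair of 5-kb bins lay side by side and had been joined by the interaction caller. The groups were chosen by these read counts: a listed interaction belonged to a group when its summed contact count (sumCC, the read pairs added up over all bin pairs of the group) was larger than its own contact count (the read pairs that join its 2 bins), and interactions with the same merged ranges were 1 group. This rule gave 3587 groups from 3787 of the 49245 listed interactions, or 7.69%. The other 45458 interactions were single bin pairs. HAL-01 is a cell line of B cell acute lymphoblastic leukemia that carries t(17;19) and expresses the fusion protein TCF3::HLF. The cells carried Cas9GFP and a knockout of wild-type TCF3, made with a single guide RNA (sgRNA) and expanded from a clone, so that an antibody against TCF3 (E2A) pulled down the fusion protein. The design held this condition alone, with no treatment and no control group, in 2 biological replicates that the authors merged before interaction calling. None of the values below therefore has a replicate error, and intervals cover counting error only.

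TCF3::HLF joins the transactivation domains of TCF3, a B-lineage transcription factor, to the basic leucine zipper of HLF, a transcription factor of hematopoietic stem cells, and binds DNA at the HLF motif. HiChIP ligates DNA ends that lie close together in the nucleus and pulls down those that carry the protein, so a listed interaction joins a bound site to a distant partner. A bound bin that touches a row of consecutive bins gives a stripe in the contact map, while contacts between broad regions give a compact block. Merged groups had both elongated and compact shapes, and whether the narrow side of an elongated group was bound was not tested.

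The HLF motif was searched as TTACGTAA and TTATGTAA on both strands. The following windows, except that of MEF2C, are shown because they hold motifs on the more focal side of large groups described below. They are a selection, and not all motifs of these sides are printed. The MEF2C window is shown because the study targeted it, and it lies on the wider side of its group, 5 bins against 4. Each holds the motif in capitals with 10 bases on each side, in hg38, read 5′ to 3′ on the strand given.
Gene-poor region of chromosome 18, first site (chr18:73047959-73047986, plus strand, intergenic): taaagttgagTTATGTAAcagagagtta
Gene-poor region of chromosome 18, second site (chr18:73047974-73048001, plus strand, intergenic): taacagagagTTATGTAAccattgtcat
SEC14L1, first site (chr17:77099122-77099149, plus strand, exon of a non-coding transcript of the overlapping genes SEC14L1 and SNHG20): ctgtggagggTTATGTAAcagtggttat
SEC14L1, second site (chr17:77100791-77100818, plus strand, intron): cagcgtaactTTACGTAAggtcaatcaa
ARMC9, first site (chr2:231241930-231241957, minus strand, intron): ataataaaagTTATGTAActgccctctc
ARMC9, second site (chr2:231241944-231241971, plus strand, intron): ataacttttaTTATGTAAtatttcctgc
EXOC6B (chr2:72771108-72771135, minus strand, intron): acacttctggTTATGTAAtaactttgta
CXCR4 partner (chr2:136207799-136207826, minus strand, intergenic): tgtggaaagaTTATGTAAcagggcctct
MEF2C (chr5:88825100-88825127, plus strand, intron): cccacatgtaTTATGTAAtgctaagcca
The study designed sgRNAs against the MEF2C enhancer. The guides E.1 (chr5:88825103-88825122) and E.2 (chr5:88825104-88825123) matched the minus strand of hg38, each with the motif inside and with the PAM GGG or TGG next to it. They are shown with the motif in capitals, in its reverse complement.
E.1: tagcaTTACATAAtacatgt
E.2: ttagcaTTACATAAtacatg

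Most groups were small. Of the 3587, 2678 (74.7%) held 2 significant bin pairs, 545 held 3, 189 held 4, 153 held 5 to 9 and 22 held 10 or more, with a maximum of 34. These numbers come from the deposited fraction of significant bin pairs in the box spanned by both ranges, which gave a whole number in all 3587 groups (tolerance, 0.001). Together the groups held 9026 significant bin pairs, of which 5239 had no line of their own in the list. They made up 16.6% of all significant bin pairs and 20.6% of the read pairs, 291090 of 1410634. A single listed interaction stood for 3422 of the groups, and 165 groups had from 2 to 7. The median sumCC was 60 (range, 26 to 2025), and the median contact count of the strongest bin pair was 33 (range, 13 to 615), against 23 (range, 7 to 154) for single bin pairs. Because sumCC and contact count chose the members, these differences describe the choice.

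Just inside the rule lay groups in which a strong bin pair had a weak neighbor. The largest contact count of the list, 615, belonged to such a group on chromosome 20 (chr20:29255001-29265000 with chr20:29885001-29890000), whose sumCC was 632. Its bins shared 1029 31-mers (sequences of 31 bases), and it was 1 of 4 groups with 500 or more. How its reads were placed between the bins was not tested. A group at GTF2A1-AS1 and LINC02308 on chromosome 14 had 121 of 141 read pairs in a single bin pair, a group at SV2B on chromosome 15 had 126 of 141, a group at CDK6 had 102 of 123, and a group near OR4A5 on chromosome 11 had 105 of 119. Among the strongest single bin pairs, just outside the rule, were those at VAMP4 and METTL13 (154), at PANX1 (119), at RABGAP1L (118) and at TOB1 (116). Around 925 groups (25.8%), a single bin pair lay within 10 kb of both ranges and had stayed apart.

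Groups joined closer bins than single bin pairs did. The median distance was 125 kb (95% interval, 120 to 125) in groups and 275 kb (270 to 275) in single bin pairs. Only 35 groups (0.976%) spanned more than 1 Mb, against 14.7% of single bin pairs. The share of listed interactions that belonged to a group fell with distance, from 14.7% (95% interval, 14.04 to 15.4) at 50 to 100 kb to 6.33% at 200 to 500 kb and 0.101% at 2 to 3 Mb. By contact count it was 0.219% up to 15 read pairs and 61.9% (58.1 to 65.5) above 60. This second series is partly fixed by the rule, which used the contact count. It is also partly fixed by the merging, which left 5239 bin pairs of the groups without a line of their own to be counted. The distance series was not matched for contact count, and in its last class only 2 of 1974 interactions were in groups. Among chromosomes the share ran from 5.47% on X to 9.46% on 22. Relative to length, groups were most frequent on chromosomes 17 (1.79 per Mb) and 20 (1.78 per Mb) and least frequent on X (0.378 per Mb). Copy number of HAL-01 was not analysed here.

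**Figure D1:**
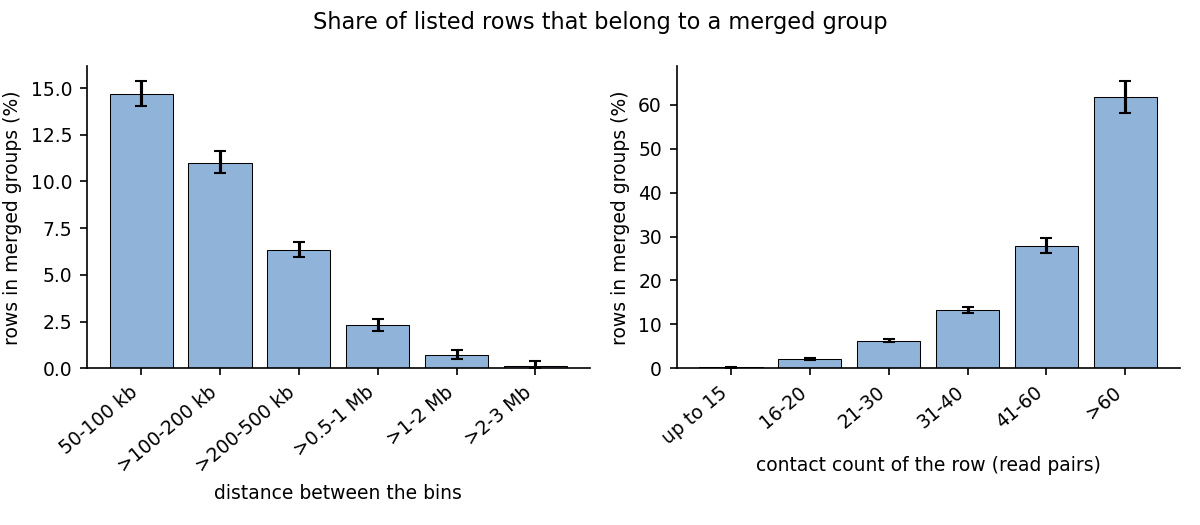
Share of listed interactions that belong to a merged group, by distance between the bins (left) and by contact count of the interaction (right). Bars give percent and error bars Wilson 95% intervals. The share is 14.7% at 50 to 100 kb and 0.101% at 2 to 3 Mb, and it is 0.219% up to 15 read pairs and 61.9% above 60. Contact count is a value the rule used, and the 5239 bin pairs of groups without a line of their own are not counted.

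Most groups had the smallest shape that 2 bin pairs can take. In 2600 groups (72.5%; 95% interval, 71.0 to 73.9) a side was a single 5-kb bin, and in 2733 (76.2%; 74.8 to 77.6) the wide side measured at least 2 times the narrow side. The most frequent shape, in 2245 groups (62.6%), was 1 bin that met 2 neighboring bins, which is elongated by construction. Among the 909 groups of 3 or more bin pairs, 355 (39.1%; 35.9 to 42.3) had a side of 1 bin and 488 (53.7%; 50.4 to 56.9) were elongated. In the 2245 groups of 1 bin with 2 neighbors, the weaker bin pair had a median contact count of 21 and the stronger 31. The second bin lay closer to the partner in 49.9% (47.8 to 52.0) of these 2245 groups. The wide side lay at the higher coordinate in 51.9% (50.05 to 53.8) of the elongated groups. In a further 433 groups (12.1%), 2 bin pairs met only at a corner, and in 209 of these (48.3%) both lay at the same distance. The longest side, 22 bins or 110 kb, belonged to a group at SEC14L1. All bin pairs of the box were significant in 363 of the 909 groups of 3 or more bin pairs (39.9%; 36.8 to 43.2).

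Bins on the narrow side of elongated groups held the HLF motif more often than bins on the wide side. In the 2733 elongated groups, 58.5% (95% interval, 56.7 to 60.3) of the 2877 narrow-side bins held an exact motif, compared with 31.03% (29.3 to 32.8) of the strongest wide-side bins and 30.1% (28.7 to 31.6) of the other wide-side bins. Bins 25 kb outside the narrow side held it in 27.99% and bins 25 kb outside the wide side in 28.2%, and 30.6% of all 5-kb bins of chromosomes 1 to 22 and X held it. The palindromic form TTACGTAA was found in 7.61% (6.70 to 8.64) of narrow-side bins, 2.27% of the strongest wide-side bins and 1.81% of all bins. Start sites of protein-coding and lncRNA genes were not distributed in this way. They lay in 20.1% (18.6 to 21.6) of narrow-side bins and 19.8% (18.3 to 21.3) of the strongest wide-side bins, with 16.8% in both flanks. The median G+C content was 41.6% on the narrow side and 41.5% in the strongest wide-side bins.

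Narrow-side bins also held more than 1 motif more often, and more of their motifs were framed by the bases that usually border an HLF site. Counted once each, 53.1% (50.9 to 55.2) of 2060 distinct narrow-side bins and 29.9% (28.8 to 31.1) of 6163 distinct wide-side bins held a motif, and 15.3% (13.8 to 17.0) and 6.30% (5.72 to 6.93) held 2 or more. Of the 1499 motifs on narrow sides, 47.3% (44.8 to 49.8) had A or G before and C or T after the 8 bases, against 26.2% (24.5 to 28.1) of 2314 motifs on wide sides and 18.6% and 23.4% in the flanks. The search for the bordering bases was chosen after the windows had been seen. All printed windows have this form except the second SEC14L1 window, but they are a selection. In the same ARMC9 bin, an unprinted motif (chr2:231242112-231242139) had C before it. In the same EXOC6B bin, an unprinted motif (chr2:72771427-72771454) had G after it, and another (chr2:72770436-72770463) had the form. The printed windows therefore do not show how frequent it was.

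The motif share changed within a single bin. In the 2245 groups of 1 bin with 2 neighbors, the shared bin held a motif in 57.3% (55.3 to 59.4), the stronger of the 2 neighbors in 31.8% (29.9 to 33.7) and the weaker in 31.05% (29.17 to 32.99). The bins directly beside the shared bin held it in 29.98% and 29.5%, and shares at 10 to 50 kb lay between 26.9% and 30.7%. Counted by group, however, the sides were closer. The motif lay on the narrow side alone in 733 elongated groups, on the wide side alone in 592, on both in 913 and on neither in 495, so that the narrow side held 55.3% (52.6 to 58.0) of the 1325 one-sided groups although it was the shorter side. Per 5-kb bin, the narrow side had more motifs in 1458 of 2100 groups with a difference (69.4%; 67.4 to 71.4). Many groups shared their narrow range, with 1988 distinct ranges in 2733 groups. With 1 group for each range, chosen after seeing the data, the motif share of narrow-side bins was 53.2% and the one-sided share 49.5% (46.4 to 52.6).

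The motif share moved with the number of listed interactions of a bin. Of the bins with a listed interaction, the 2045 on narrow sides had a median of 7, and both the 3370 on wide sides only and those outside every merged range had a median of 1. A further 2503 bins on wide sides only and 15 on narrow sides lay in merged ranges with no listed interaction of their own, and were not part of this comparison. The motif lay in 27.9% (26.2 to 29.7) of these 2503 bins. Among bins with 6 to 10 listed interactions, 55.3% (51.7 to 58.9) of narrow-side bins, 49.4% (42.1 to 56.8) of bins on wide sides only and 52.3% (49.8 to 54.9) of bins in no merged range held a motif. With 11 to 20 the shares were 66.5% (62.0 to 70.8), 56.2% (44.8 to 66.95) and 66.7% (59.8 to 72.9). With 1 to 2 they were 32.6% (27.9 to 37.8), 26.7% (25.1 to 28.3) and 28.8% (28.4 to 29.2). The intervals of narrow-side bins and of bins in no merged range overlapped in all 4 classes up to 20 interactions, and above 20 there were 107 narrow-side bins (83.2%) but only 3 bins in no merged range. Among bins of merged ranges, the motif share was 31.6% in those of 1 group and 65.0% (58.3 to 71.03) in those of 5 or more, and the share with a start site was 18.7% and 16.8%. Reference peaks of the pulldown, from which interactions were called, were not analysed here, so their part in these shares was not tested.

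Compared with single bin pairs, groups held the motif somewhat more often. At least 1 of the 2 bins of the strongest bin pair held it in 70.7% (69.2 to 72.2) of groups and 66.4% (66.0 to 66.8) of single bin pairs, beside 66.8% of all listed interactions. Single bin pairs weighted to the contact counts and distances of the groups gave 67.7%, and bins 25 kb away 47.8% and 48.4%. The order was not the same at all contact counts. Up to 15 read pairs the share was 45.5% (21.3 to 71.99) in 11 groups and 62.02% in single bin pairs, and at 16 to 20 it was 62.4% (55.9 to 68.4) and 66.7% (65.8 to 67.6). At 41 to 60 it was 74.5% (71.1 to 77.6) in groups and 69.8% (67.7 to 71.8) in single bin pairs, and above 60 it was 78.6% (74.1 to 82.4) and 74.1% (68.3 to 79.1), with overlapping intervals. Start sites lay in at least 1 of the 2 bins in 34.4% (32.8 to 35.9) of groups and 30.6% (30.2 to 31.03) of single bin pairs, 32.2% after weighting, beside 30.9% of all listed interactions. A motif in a bin with a start site in its partner was present in 16.7% (15.5 to 17.98) of groups, 12.8% (12.5 to 13.1) of single bin pairs and 13.7% of weighted single bin pairs.

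The 12 groups with the largest sumCC held 209 bin pairs and 4.61% of the read pairs of all groups. They spanned 60 to 230 kb, 6 of them lay on chromosome 2, and 9 had a protein-coding start site in a merged range. All 12 held a motif. Of the 11 with sides of unequal width, 8 had a motif on the narrow side and 10 on the wide side. Their ranges held 75 motifs, 5 of them TTACGTAA, with 36 in intergenic sequence, 35 in introns, 3 in exons outside annotated coding sequence and UTRs and 1 in a UTR exon.

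**Figure D2:**
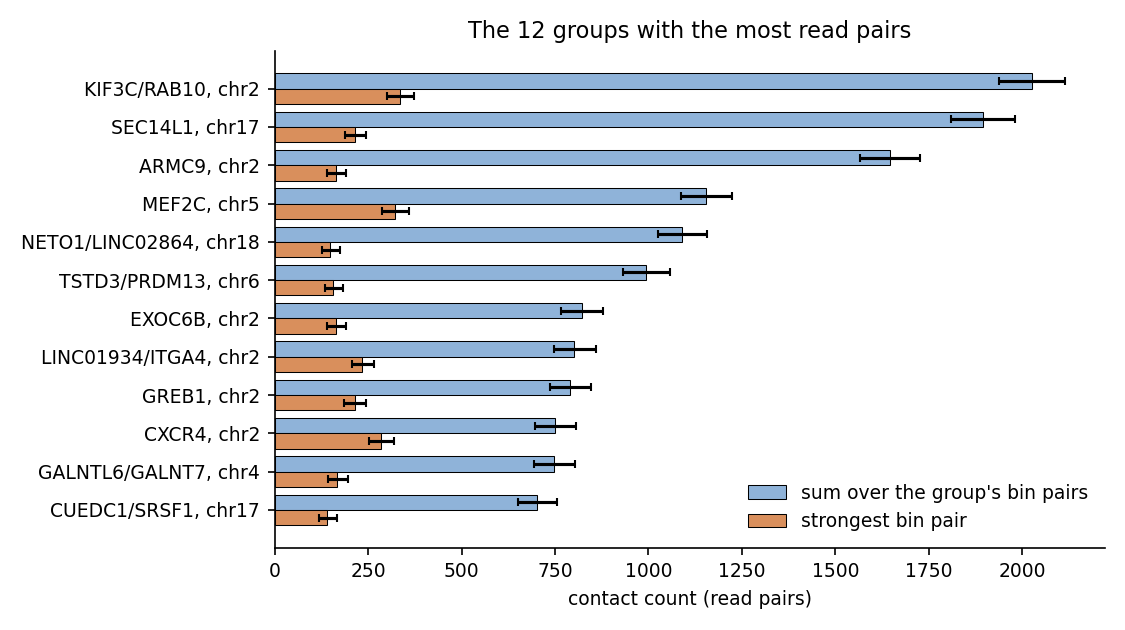
Contact counts of the 12 groups with the largest sumCC, as the sum over all bin pairs of the group (blue) and for the strongest bin pair (orange), labelled by a gene at each range. Error bars are exact Poisson 95% intervals, which cover counting error only. The order by sum and by strongest bin pair differs, as the group at SEC14L1 has 1894 in all and 215 in its strongest bin pair.

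The largest group joined 2 bins near KIF3C, a kinesin motor subunit, to 21 bins over RAB10, a small GTPase of vesicle transport (chr2:25990001-26000000 with chr2:26065001-26170000). Its sumCC was 2025 (exact Poisson 95% interval, 1938 to 2115) over 30 bin pairs. Its 6 listed bin pairs had 336, 140, 87, 50, 39 and 35 read pairs, and 5 of them met at the same bin, chr2:25990001-25995000. The narrow side held 0 exact motifs, and the wide side held 7. This group was therefore among the 592 elongated groups with a motif on the wide side alone.

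The second group had the most bin pairs, 34, with a sumCC of 1894 (1810 to 1981). It joined 2 bins in SEC14L1, which encodes a lipid-binding protein of the SEC14 family, to 110 kb that held start sites of SEC14L1 and of the lncRNA SEPTIN9-DT (chr17:77095001-77105000 with chr17:77155001-77265000). All 7 listed bin pairs started in the bin with the first SEC14L1 window, with 215, 165, 112, 81, 74, 47 and 32 read pairs to bins 65 to 165 kb away. The strongest of them was at 150 kb and the weakest at 165 kb, so that the counts did not follow distance along the stripe. Both narrow bins held a motif, and 3 of 22 wide bins did.

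The third group lay in ARMC9, which encodes a protein of the ciliary base, and reached B3GNT7, a glycosyltransferase gene (chr2:231220001-231250000 with chr2:231355001-231425000). Its box had 6 by 14 bins, which counts as elongated, with 29 significant bin pairs, a fraction of 0.345 of the box. The bin with both printed ARMC9 windows held 3 motifs and took part in 4 of the 7 listed bin pairs, with 165, 104, 48 and 29 read pairs. The other 3 had 99, 93 and 39. The group at MEF2C, a transcription factor of myeloid and lymphoid progenitors, was compact, with 5 by 4 bins, 11 bin pairs and 322 of its 1154 read pairs in a single bin pair. Its printed motif lay in chr5:88825001-88830000, the bin next to that of the strongest bin pair (chr5:88820001-88825000), which held 0. The partner bin of that pair (chr5:88880001-88885000) held 1.

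A group on chromosome 18 had no protein-coding gene in its ranges. Its narrow side (chr18:73045001-73055000) lay 176855 bp from the start of NETO1, a gene for an auxiliary subunit of neuronal receptors, and its wide side covered 80 kb with the lncRNA LINC02864. The sumCC was 1090 (1026 to 1157), and its 5 listed bin pairs, with 149, 83, 68, 53 and 33 read pairs, all met in the bin with both overlapping chromosome 18 windows. On chromosome 6, 3 bins near PRDM13, a zinc finger gene, and 15 bins beyond it had a sumCC of 993 (932 to 1057). In EXOC6B, which encodes a subunit of the exocyst, a single bin with 3 motifs met 11 consecutive bins that included the gene's start (chr2:72770001-72775000 with chr2:72820001-72875000). All 11 bin pairs of that box were significant, with a sumCC of 821 (766 to 879), and it was the longest stripe with a side of 1 bin.

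The remaining large groups included 2 at genes of leukocyte homing. At CXCR4, the receptor of the chemokine CXCL12, 5 bins with the start site met 3 intergenic bins 70 kb away (chr2:136115001-136140000 with chr2:136205001-136220000). The sumCC was 750 (697 to 806), of which 284 (252 to 319) fell on 1 bin pair. All 3 intergenic bins held a motif and none of the 5 bins at CXCR4 did. At ITGA4, an integrin subunit of lymphocyte adhesion, 3 bins in LINC01934 met 6 bins at the gene's start with a sumCC of 802 (747 to 859), and the strongest bin pair, 235 read pairs, had 0 motifs in both bins. GREB1, known as a gene of the estrogen response, had 790 (736 to 847), with 5 motifs on a side and 0 on the other. A group from GALNTL6 to GALNT7, an enzyme gene of mucin-type glycosylation, had 747 (694 to 803) with 0 motifs on its narrow side and 4 on its wide side. The only square box among the 12, 7 by 7 bins on chromosome 17, joined CUEDC1 and MRPS23 to SRSF1 and VEZF1, with 702 (651 to 756) over 15 bin pairs and a strongest bin pair of 141 read pairs with 2 motifs in each bin.

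Large groups at long distance were rare. Among groups of 4 or more bin pairs, the longest distance was 905 kb, between ARHGAP26 and HMHB1 on chromosome 5, with a sumCC of 101 (82.3 to 123) and motifs on both sides. NLRP1, an inflammasome gene, met AIPL1 and PIMREG at 855 kb with 143 read pairs (121 to 168). Intergenic bins of chromosome 7, with IGFBP3 and TNS3 as the nearest protein-coding genes, met at 775 kb with 114 (94.0 to 137). The region of NRAD1 on chromosome 13 met TSC22D1, a transcriptional regulator, at 525 kb with 227 (198 to 259).

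A few bins took part in many groups. The bin with both chromosome 18 windows was part of 18 groups and 65 listed interactions. Its partners lay on both sides, 6 at lower and 12 at higher coordinates, with group distances of 50 to 1365 kb and sumCC from 43 to 1090. Only 1 of these partner ranges held a protein-coding start site, that of C18orf63. Also in 18 groups was a bin inside BABAM2 (chr2:28270001-28275000) with 1 motif. The largest of its groups, 178 read pairs, ended at FOSL2, an AP-1 transcription factor gene, 110 kb away, and 14 of the 18 partners lay at lower coordinates over BABAM2, MRPL33 and genes beyond. A bin in SBF2 (chr11:9855001-9860000) had 15 groups and 0 exact motifs, and the next bin (chr11:9860001-9865000), in 12 groups, held 1. Their partners held start sites of SBF2 itself, with 309 read pairs, of AMPD3, with 50, and, for the first bin, of WEE1, a kinase of the mitotic checkpoint, with 54.

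Among genes, 5472 protein-coding genes had a start site in any listed bin or merged range. Of these, 1141 (20.9%) had one in a merged range. Their median number of groups was 1, the largest was 8, and 30 genes (2.63%) had 5 or more. The gene lists were read against this share. Of the stem cell and leukemia transcription factors, 7 of 20 were in a listed bin or merged range. Of these 7, 6 were in a merged range (ETV6, LMO2, LYL1, MEF2C, MYC and SOX4), with FLI1 outside. Of the adhesion and homing genes it was 5 of 8 (CD44, CXCR4, ITGA4, ITGA5 and PECAM1). Of the B-lineage genes it was 4 of 9 (FOXO1, FOXP1, IKZF1 and RAG1), of the cyclins and kinases of G1 and their inhibitors 2 of 6 (CCND3 and CDK6), and of the cytokine and growth factor receptors 1 of 4 (TNFRSF1A). The chromatin list had 1 of 7 (CREBBP), and the ribosomal protein list, included as housekeeping genes, 1 of 7 (RPS3). None of the 6 listed genes of the BCL2 family was in a merged range. With so few genes a list, the Wilson 95% interval of 6 of 7 runs from 48.7 to 97.4% and that of 5 of 8 from 30.6 to 86.3%. The lists were chosen with earlier results of these data known, and the study had named MEF2C and MYC among its leading interactions. The share of 20.9% was not matched for the number of listed interactions of a gene. The counts therefore describe the lists and do not test them.

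CDK6, the D-cyclin-dependent kinase of G1, was in 8 groups, and no gene was in more, with sumCC from 62 to 255 and distances of 55 to 155 kb. Of these groups, 6 shared the bin chr7:92720001-92725000, which held 2 motifs. MEF2C was in 7 groups, with sumCC from 33 to 1154 and distances of 60 to 460 kb, and 4 of them included the bin with the printed motif. PECAM1, an adhesion receptor of leukocytes and endothelium, was in 3 groups of 70 to 148 read pairs that all included chr17:64410001-64420000, with 1 motif. Both groups of CCND3, a D-type cyclin gene, joined its bin with 1 motif (chr6:42045001-42050000) to bins in USP49 at 145 and 230 kb, with 61 and 187 read pairs. Both groups of CREBBP, a histone acetyltransferase gene, met at chr16:3850001-3860000, with 83 and 163.

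The remaining list genes had groups of 2 or 3 bin pairs. RAG1, a recombinase gene of lymphocyte receptors, had 116 read pairs (95.9 to 139) at 50 kb, with 1 motif in its own range. LMO2, a cofactor of stem cell transcription factors, had 94 (76.0 to 115) at 65 kb. IKZF1, the lymphoid factor Ikaros, had groups of 94 at 160 kb, with 0 motifs, and 78 at 70 kb, with 2 on each side. TNFRSF1A had 85 at 85 kb, ETV6 had 64 and 55, FOXO1 had 60 at 115 kb, with 2 motifs on each side, CD44 had 49 at 210 kb, ITGA5 had 45, LYL1 had 44, FOXP1 had 36 and the ribosomal protein gene RPS3 had 64. The longest distances were those of SOX4, with 40 read pairs (28.6 to 54.5) at 715 kb, and MYC, with 78 (61.7 to 97.3) at 1845 kb. Of the 39 groups with a start site of a list gene, 35 held a motif in a merged range, or 89.7% (76.4 to 95.9), against 83.7% (82.4 to 84.9) of all groups. Groups of the same gene shared motif bins, as at CDK6, MEF2C and PECAM1, so the 39 were not independent. The interval takes no account of this, and the difference was not tested.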

How the data were processed

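The authors trimmed the reads with Trim Galore 0.6.6, merged 2 biological replicates, aligned to hg38 with BWA-MEM, extracted pairs with pairtools without its dedup step, called MACS2 peaks as reference and called interactions with FitHiChIP (version not given in the sources used here) at 5 kb, over distances of 50 kb to 3 Mb, at q below 0.01 and with merging of near contacts. The deposited contact counts (own and summed) are read pairs without normalization, the deposited p-value and q-value are relative to the FitHiChIP background for distance and coverage, and the deposited fraction is the share of significant bin pairs in the merged box. Columns of other samples left out numbered 0.

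Groups were read by the rule given in the report, and the strongest bin pair of a group is the listed one with the smallest p-value. The number of significant bin pairs is the fraction times the bin pairs of the box. Motifs were exact matches of 8 bases within a bin in hg38. TTACGTAA is its own reverse complement and was counted once. Start sites came from GENCODE release 44 transcripts. Near-identical bins shared 500 or more 31-mers on either strand. Shares have Wilson and contact counts exact Poisson 95% intervals. Intervals are lower limits of the error because duplicate read pairs were kept and bins of a pooled library are not replicates, so no test was made. The depth is the 1410634 read pairs of all groups and single bin pairs, from significant bin pairs alone.

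Named groups were the 12 with the largest sumCC, the 5 with the most bin pairs, the most listed interactions, the largest distance among those of 4 or more bin pairs and the smallest sumCC over contact count, the 5 bins in the most groups, and genes of 8 fixed lists with a start site in a merged range. Members and lists were chosen with earlier results of these data known. Alternatives were a stricter q-value, larger groups, distances to 1 Mb, other motif, start site and range definitions, and other shape limits. The grouping, motif and 31-mer code was tested on simulated data. Guide sequences came from the study's supplementary table. Some items are not reported here. The work was done in Python 3.11.15 with pysam 0.24.0, matplotlib 3.10.9, scipy 1.17.1, pandas 2.3.3 and numpy 2.4.6.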

Additional observations from a re-analysis of the deposited data

How the results depend on the processing

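The number of 3587 groups was 3253 with a q-value under 1e-05, 3552 with distances of at most 1 Mb, 3583 without near-identical bins and 3587 with the same sumCC required. It was 924 with a sumCC of at least 2 times the largest contact count and 909 with at least 3 bin pairs. The share of interactions in groups, 7.69%, was 10.6% for contact counts of at least 20. The motif share of 70.7% was 10.0% for TTACGTAA alone and 83.7% over the whole ranges. The start site share of 34.4% was 74.97% within 10 kb, 26.1% for protein-coding genes alone and 48.6% over the whole ranges. The narrow-side share of 55.3% was 52.1% with a wide side of at least 3 times the narrow side and 69.4% per 5-kb bin. Among alternatives chosen after seeing the data, it was 58.9% for wide sides of 4 or more bins, 49.5% with 1 group for each narrow range and 64.2% with both 1 group for each range and counts per bin. The share of genes, 20.9%, was 19.2% within 10 kb and 14.5% for listed bins alone. Of 23 alternative values, 8 stayed within 1.5 times a count or within the interval of a share. No paired analysis was possible because the series has 1 group and its replicates were merged before calling, so leaving out a replicate was not possible.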
